A study of Mus musculus with 8 samples.

Results

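Removal of the 5′ cap and digestion of the uncapped mRNA are carried out by a small set of proteins, and the 7 genes described here encode its core in the mouse. They were chosen by symbol, as Dcp1a, Dcp1b, Dcp2, Dcps, Edc3, Edc4 and Xrn1, and each had 1 row among the 25574 genes of the deposited table. Their mRNAs were compared between the polysomal (P) and the non-polysomal (NP) part of sucrose gradients, with 4 libraries of each. Every library came from CD1 mouse oocytes at nuclear envelope breakdown (NEBD), without any genetic change, drug arm or untreated control. The mice were 8 weeks old and had received 5 IU of pregnant mare serum gonadotropin 46 h before collection. Oocytes were isolated as germinal vesicle oocytes in 100 µM IBMX, cultured for 180 min without it, and all were exposed to cycloheximide at 0.1 mg/mL for 10 min, which holds ribosomes on the mRNA. A profile used 200 oocytes, and of 10 gradient fractions, 2 to 5 were pooled as NP, which holds ribosomal subunits, monosomes and stored mRNA particles, and 6 to 10 as P. How many mice contributed to a pool of oocytes is not stated, and fewer oocytes contributing and less RNA per oocyte cannot be told apart in such pools.

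DCP2 is the hydrolase that cuts the cap from an mRNA, DCP1A and DCP1B are paralogous cofactors that bind and activate it, and EDC3 and EDC4 are enhancers of decapping that hold the complex together. XRN1 is the exonuclease that then digests the body of the mRNA from its 5′ end. DCPS acts at the end of the opposite route, where it hydrolyses the short capped remnant that is left after the exosome has degraded an mRNA from its 3′ end. In mouse oocytes, which make no new transcripts during maturation, DCP1A and DCP2 are known as products of stored maternal mRNAs that are recruited for translation as meiosis resumes, and they contribute to the later clearance of maternal mRNA.

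Recruitment of stored mRNAs in oocytes commonly works through the 3′ end, where a cytoplasmic polyadenylation element (CPE) acts together with the polyadenylation signal, and for this reason stretches near the annotated 3′ ends of 4 members are shown. The sequences are windows of 30 bases, 5′ to 3′ on the sense strand, from the GENCODE M21 transcripts (GRCm38), in which capitals mark the polyadenylation signal (AATAAA or its variant form ATTAAA) and the CPE (TTTTAAT or the shorter form TTTTAT).
Dcp1a: atatgtttgcaaatatatttTTTTAATAAA
Edc4: tgcaATTAAAggcttttggAATAAAagaaa
Xrn1: tgtacatcagtgatacctcAATAAAtctgt
Dcps: tcctcacatgagAATAAAgaactttctgat
The windows were placed around the last signal, which is followed by 33 bases up to the annotated end in Dcp1a, 21 in Dcps and 5 in Edc4 and in Xrn1, so that those of Dcp1a and Dcps stop short of that end. Only the sense strand was searched, over the last 100 bases of 1 principal coding transcript per gene. Of the 7 members, Dcp1a was the one with a CPE there, in the form TTTTAAT, which overlapped the signal by 3 bases. Among 11707 tested genes with such an annotated end, 18.6% held either CPE form in this window and 79.6% held either signal. Which ends the oocyte transcripts have was not measured, so the matches describe the annotation alone.

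The labelled cell type was checked against marker genes. All 12 oocyte markers, among them the zona pellucida genes and Gdf9, had a mean above 1 FPKM, and their summed level ran from 5810 to 11564 FPKM in NP and from 7989 to 30701 FPKM in P. Of 14 granulosa and cumulus cell markers, 4 had a mean above 1 FPKM. The list had a summed level of 15.3 to 141 FPKM in NP and 21.4 to 64.0 FPKM in P. Cyp19a1, Nr5a2 and Cyp11a1 had the highest means of these markers. The mean of each exceeded the NP and P means of the members Edc3, Xrn1 and Dcp1b. Amhr2, Foxl2 and Has2 were at 0 in every library. The 4 blood cell markers in the table were at 0 too. The part of such cells in the members' values was not tested. The value that 1 read adds to the FPKM of a gene could be found from the spacing of low values, and from it the total to which each library had been scaled, which ran from 1299377 to 7594637 in NP libraries and from 2677946 to 4699327 in P libraries. A difference between P and NP was tested with limma on log2(FPKM + 1). The 14292 tested genes averaged more than 0.1 FPKM in NP, in P or in both, and all fold changes are P over NP on this scale.

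Dcp1a and Edc4 were abundant on both sides of the gradient, and Dcps was the member with the largest difference on the log2(FPKM + 1) scale, with lower values in P. Edc3, Dcp2 and Xrn1 had values that overlapped between the groups, and Dcp1b was close to the detection limit in most libraries. After adjustment over all tested genes (limma, Benjamini-Hochberg, threshold 0.1), none of the 7 members was called, against a background of 0.021% of all tested genes (3 genes, all higher in NP). At an unadjusted p below 0.05, limma picked 1 of the 7 members, Dcps, against 9.95% of all tested genes (9.47% higher in NP and 0.476% higher in P), and limma's voom model on recovered reads also called 0 members after adjustment, against 124 of the 12899 genes in that model. A p that misses the threshold does not show that the levels were equal, and the intervals given with each gene show what these libraries leave possible.

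**Figure D1:**
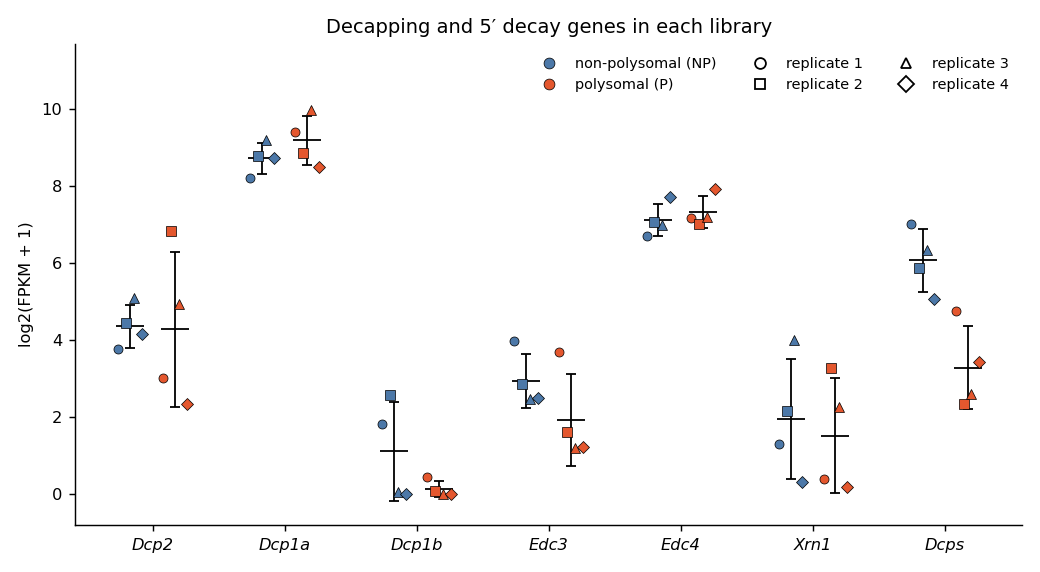
Levels of the 7 genes as log2(FPKM + 1) in each of the 4 NP (blue) and 4 P (red) libraries, with marker shapes for replicates 1 to 4 and bars for the mean and SD of a group. For Dcps, all NP points lie above all P points, whereas the groups overlap for the other 6 genes.

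Dcp2, the catalytic subunit, lies on chromosome 18 (GRCm38, as for all positions given) from 44380500 to 44424969 on the plus strand. Its level was 12.6, 20.7, 33.2 and 16.9 FPKM in NP replicates 1 to 4 and 7.14, 113, 29.5 and 4.10 FPKM in P replicates 1 to 4. The P libraries thus enclosed the whole NP range, with values both above and below it, and spanned 27.5-fold against 2.63-fold in NP. The mean was 20.9 ± 8.84 FPKM in NP and 38.4 ± 51.0 FPKM in P (SD, n = 4 per group), a P/NP ratio of 1.84 that was 0.650 without P replicate 2. On the log2 scale the fold change was −0.08 (standard error 0.92, 95% interval −2.05 to 1.88, adjusted p = 0.971 from limma). The direction is therefore not set by these data, and it also turned with the scaling between libraries.

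Dcp1a, the cofactor of DCP2, was the most abundant member in all 8 libraries. The gene lies on chromosome 14 from 30479565 to 30527056 on the plus strand. It had 297, 438, 585 and 425 FPKM in NP replicates 1 to 4 and 678, 462, 1016 and 364 FPKM in P replicates 1 to 4. The highest values were in P replicates 3 and 1, but P replicate 4 lay below 3 of the 4 NP libraries. The mean was 436 ± 118 FPKM in NP and 630 ± 289 FPKM in P (SD, n = 4 per group), and the log2 fold change was 0.46 (standard error 0.53, 95% interval −0.68 to 1.60, adjusted p = 0.728 from limma). Within each library Dcp1a had a percentile rank among the tested genes of 97.3 to 99.4 in NP and of 97.8 to 99.8 in P. Its recovered read numbers ran between 3197 and 25376 per library, for a length of 5616 bp that was found by search, against 8230 bp of annotated exons.

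Dcp1b, the paralog of Dcp1a, lies on chromosome 6 from 119175252 to 119221614 on the plus strand. It had 2.52, 4.98, 0.0434 and 0 FPKM in NP replicates 1 to 4 and 0.369, 0.0492, 0 and 0 FPKM in P replicates 1 to 4. NP replicates 1 and 2, with 51 and 41 reads, held most of the signal, and no other library had more than 11 reads. In the libraries at 0, the limit set by 3 reads is 0.0623 FPKM in NP replicate 4, 0.106 FPKM in P replicate 3 and 0.177 FPKM in P replicate 4. The mean was 1.89 ± 2.37 FPKM in NP and 0.105 ± 0.178 FPKM in P (SD, n = 4 per group), an NP/P ratio of 18.02 that was 8.17 without NP replicate 2 and 115 without P replicate 1. The log2 fold change was −0.98 (standard error 0.56, 95% interval −2.18 to 0.21, adjusted p = 0.550 from limma), and a difference between NP and P was not detectable with these libraries and depths.

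The paralogs thus differed widely in level within every library. The log2 ratio of Dcp1a to Dcp1b, which sets both genes side by side within a library, was above 0 in 8 of 8 libraries. It was 7.62 ± 1.53 in NP and 9.06 ± 0.65 in P (SD, n = 4 per group), a difference of 1.44 (exact permutation test over 70 assignments, 2-sided, p = 0.229). With libraries paired by replicate number, the exact permutation of the pairs gave p = 0.25. This ratio, with 1 added to both FPKM values, is compressed where Dcp1b is near 0.

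Of the enhancers of decapping, Edc4 was the steadier. It lies on chromosome 8 from 105880881 to 105894908 on the plus strand. Its level was 105, 134, 127 and 210 FPKM in NP replicates 1 to 4 and 143, 128, 146 and 244 FPKM in P replicates 1 to 4. In both groups replicate 4 was the highest library, and the other 3 libraries lay between 105 and 134 FPKM in NP and between 128 and 146 FPKM in P, so that the groups overlapped. The mean was 144 ± 45.8 FPKM in NP and 165 ± 52.9 FPKM in P (SD, n = 4 per group), and the log2 fold change was 0.20 (standard error 0.52, 95% interval −0.92 to 1.32, adjusted p = 0.878 from limma).

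Edc3, on chromosome 9 from 57708540 to 57752499 on the plus strand, was found at a far lower level. It had 14.7, 6.23, 4.52 and 4.61 FPKM in NP replicates 1 to 4 and 12.0, 2.04, 1.28 and 1.35 FPKM in P replicates 1 to 4. Replicate 1 was the highest library on both sides, and the other 3 P libraries lay below every NP library. The mean was 7.51 ± 4.84 FPKM in NP and 4.17 ± 5.25 FPKM in P (SD, n = 4 per group). The log2 fold change was −1.01 (standard error 0.90, 95% interval −2.94 to 0.92, adjusted p = 0.673 from limma). The NP/P ratio of the means was 1.80 with all libraries and 4.82 without P replicate 1, and the adjusted p without that library was 0.465 (limma).

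The log2 ratio of Edc4 to Edc3 was above 0 in 8 of 8 libraries, with 4.19 ± 1.05 in NP and 5.40 ± 1.39 in P (SD, n = 4 per group). The groups differed by 1.21 and overlapped (exact permutation test over 70 assignments, 2-sided, p = 0.200). With libraries paired by replicate number, the ratio was higher in P in each of the 4 pairs. The exact permutation of these pairs gave p = 0.125, the smallest that 4 pairs allow.

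Xrn1, the 5′ to 3′ exonuclease, lies on chromosome 9 from 95954760 to 96053027 on the plus strand in the deposited table. It had 1.48, 3.50, 15.0 and 0.239 FPKM in NP replicates 1 to 4 and 0.310, 8.62, 3.76 and 0.136 FPKM in P replicates 1 to 4. A high and a very low library stood in each group, so that the values spanned 62.6-fold in NP and 63.5-fold in P. The mean was 5.05 ± 6.76 FPKM in NP and 3.21 ± 3.98 FPKM in P (SD, n = 4 per group). The log2 fold change was −0.42 (standard error 1.02, 95% interval −2.61 to 1.76, adjusted p = 0.866 from limma), and it became 0.26 without NP replicate 3. Dividing the mean of P by that of NP gave 0.635 with all libraries, 1.84 without that library and 0.278 without P replicate 2.

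For Xrn1 the gene model limits what was counted. The shortest length that made its values whole numbers of reads in all 8 libraries was 5499 bp, which is the length of 1 annotated transcript of the gene, whereas GENCODE M21 extends the gene to 96057803 and its merged exons to 18585 bp. Reads beyond the end of the deposited model thus have no part in the FPKM of Xrn1. With this length, the reads numbered 26, 25, 600 and 10 in NP replicates 1 to 4 and 8, 152, 92 and 2 in P replicates 1 to 4, so that the lowest libraries rest on very few reads.

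Dcps, the scavenger decapping enzyme, lies on chromosome 9 from 35124408 to 35176061 on the minus strand, and its exons total 1451 bp. It had 129, 57.8, 79.6 and 32.8 FPKM in NP replicates 1 to 4 and 26.1, 4.08, 5.12 and 9.78 FPKM in P replicates 1 to 4. The lowest NP library lay above the highest P library, an arrangement that 5.92% of all tested genes (846 genes) shared and no other member did. The P values rest on 178, 19, 33 and 38 reads in replicates 1 to 4, against 109 to 841 reads in NP.

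The mean level of Dcps was 74.8 ± 40.9 FPKM in NP and 11.3 ± 10.2 FPKM in P (SD, n = 4 per group), an NP/P ratio of 6.64. The log2 fold change was −2.79 (standard error 0.73, 95% interval −4.36 to −1.22), with an unadjusted p of 0.00190 from limma. After adjustment over all tested genes the p from limma was 0.376, so the difference did not pass the threshold. Of the tested genes, 1.32% had a lower fold change, a share that was 8.07% with a pseudocount of 0.1 and 12.9% with voom. P replicate 1 held the highest P value, and without it the NP/P ratio was 11.8. Leaving out any other library kept the ratio between 5.04 and 7.88.

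Because the values of a library are relative to its own total, the ranks within libraries were compared as well. Ranks depend on how many genes were detected. Genes above 0 numbered 11703 to 13753 in NP libraries and 9139 to 11339 in P libraries. A low FPKM can thus rank higher in P. Xrn1 ranked at 38.9 with 0.136 FPKM in P replicate 4, but at 37.3 with 1.48 FPKM in NP replicate 1. Dcps had a percentile rank among the tested genes of 81.3 to 93.7 in the NP libraries and of 59.2 to 78.5 in the P libraries. These ranks come from the same FPKM values and are no separate evidence. The share of all tested genes with ranks apart in this way was not computed. The rank of Edc4 stayed within 92.2 and 96.6 in all 8 libraries. The ranks of Dcp2 were 66.8 to 81.2 in NP and 60.8 to 94.7 in P, and those of Xrn1 were 26.4 to 67.6 in NP and 29.6 to 68.1 in P.

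**Figure D2:**
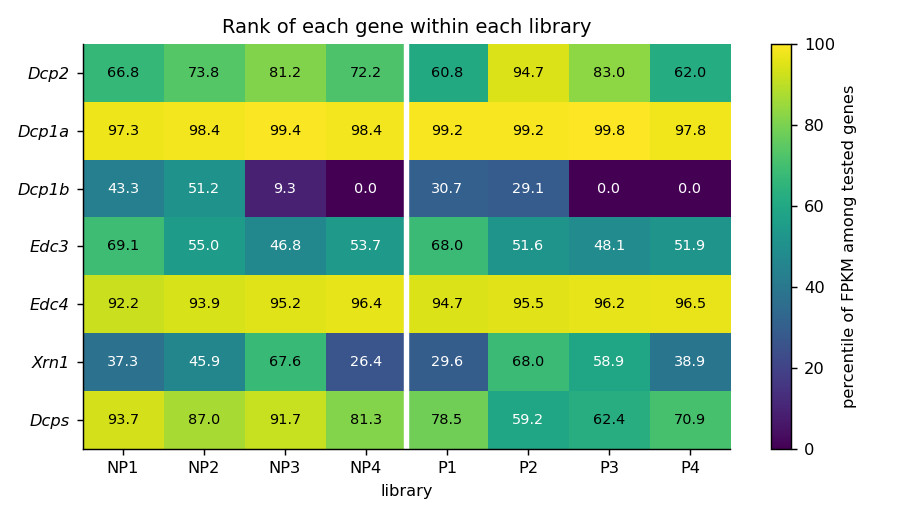
Percentile of the FPKM of each gene (rows) among the 14292 tested genes within each library (columns, NP left and P right of the white line). Dcp1a and Edc4 are near the top in all libraries, Dcps lies at 81.3 to 93.7 in NP and at 59.2 to 78.5 in P, and Dcp1b is at 0 in the 3 libraries where it has no reads.

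The order of the members by geometric mean FPKM was Dcp1a, Edc4, Dcps, Dcp2, Edc3, Xrn1 and Dcp1b in NP. In P it was the same except that Dcp2 stood before Dcps. Dcps exceeded Dcp2 in 4 of 4 NP libraries, while Dcp2 exceeded Dcps in 2 of 4 P libraries, so these neighbours were not separated in P. Edc4 was above Dcps in 3 of 4 NP libraries. Edc3 and Xrn1 were not separated in P, where Edc3 was higher in 2 of 4 libraries, nor were Xrn1 and Dcp1b in NP, where Xrn1 was higher in 2 of 4. Of the FPKM summed over the 7 genes, Dcp1a held a mean of 62.4% in NP and 71.4% in P, and Edc4 held 21.1% and 21.4%. Dcps held 11.5% in NP and 1.39% in P.

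The log2 ratio of Xrn1 to Dcps, the enzymes that act on the products of the 5′ and of the 3′ route, was below 0 in 7 of 8 libraries, the exception being P replicate 2 with 0.92. It was −4.13 ± 1.45 in NP and −1.77 ± 2.46 in P (SD, n = 4 per group), a difference of 2.37 (exact permutation test over 70 assignments, 2-sided, p = 0.171). With the other 2 ratios, the Benjamini-Hochberg adjusted p of all 3 was 0.229 in these unpaired tests. The ratio of Xrn1 to Dcps, with 1 added to both FPKM values, is compressed where Xrn1 is near 0. When 0.1 was added, its difference was 2.15 (exact permutation test, unpaired, p = 0.314). With libraries paired by replicate number and 1 added, Xrn1 to Dcps was higher in P in each of the 4 pairs. The exact permutation of these pairs gave p = 0.125, the smallest that 4 pairs allow.

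**Figure D3:**
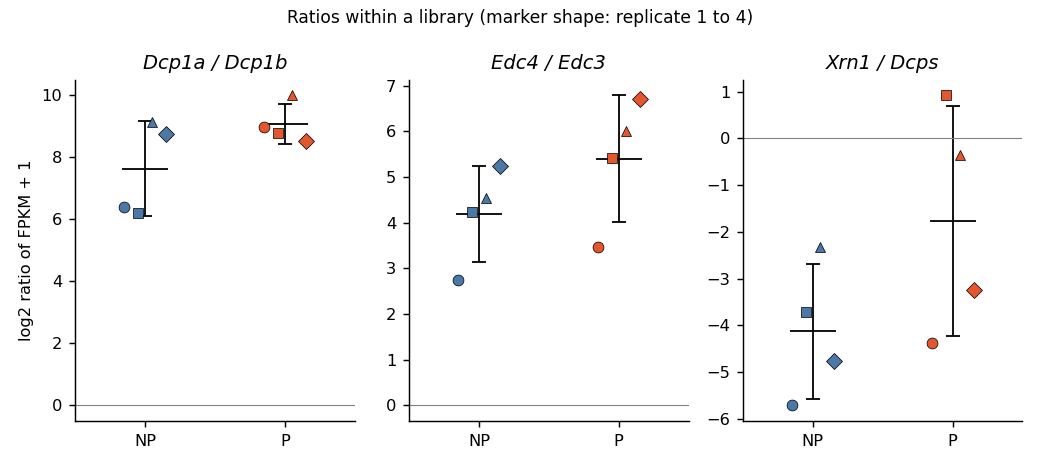
Log2 ratio of FPKM + 1 of the first to the second gene within each library, for 3 pairs of genes, in NP (blue) and P (red), with the mean and SD of 4 libraries and marker shapes for replicates 1 to 4. The groups overlap in each panel, and the mean is higher in P by 1.44, 1.21 and 2.37 from left to right. The vertical axes differ between panels.

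The scaling between NP and P libraries moves every fold change. The median log2 fold change of all tested genes was −0.39 with the FPKM values as deposited, −0.02 after quantile normalisation and 0.21 after every library had been scaled to one median FPKM. Relative to this median, Dcps was at −2.40, −2.37 and −1.74 under these 3 scalings. Dcp1a was at 0.85, 0.66 and 1.59, and Edc4 at 0.59, 0.35 and 1.32. With one median FPKM, every P library lay above every NP library for Dcp1a too, as for 5.04% of all tested genes under that scaling, but its adjusted p remained 0.421 (limma). Like the ranks, the median of a library depends on how many genes were detected, which were fewer in P than in NP. The part of this in the values under that scaling was not tested. The 4 NP values all exceeded the 4 P values for 2.09% of genes under that scaling and for 2.53% after quantile normalisation, Dcps among them in both. At an unadjusted p below 0.05, limma picked 3 of the 7 members with one median FPKM, against 1392 of the 14292 tested genes. Of these members, Dcp1a and Edc4 had higher values in P and Dcps had lower ones. Dcp2 and Xrn1 changed sign with the scaling, from −0.08 to 0.40 and 1.17 for Dcp2 and from −0.42 to 0.36 and 0.41 for Xrn1. Dcps was below the median of all genes, and Dcp1a and Edc4 above it, under all 3 scalings and with voom.

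**Figure D4:**
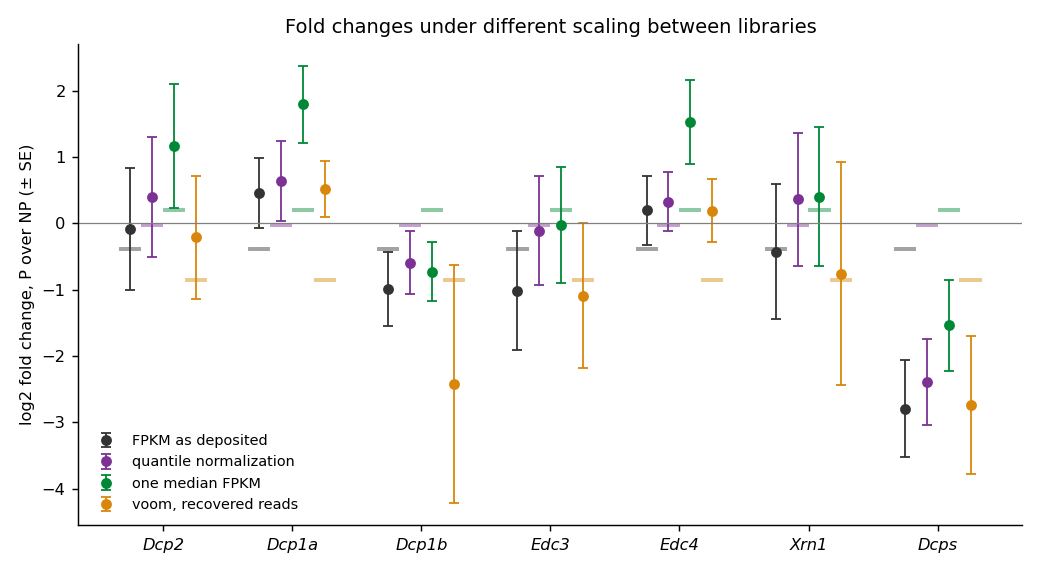
Log2 fold change of P over NP for each gene with its standard error, for the FPKM values as deposited, quantile normalisation, one median FPKM per library, and voom on recovered reads. The short thick bars mark the median of all tested genes under the same setting, at −0.39, −0.02, 0.21 and −0.85. Dcps lies below and Dcp1a and Edc4 lie above that bar in each setting.

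The members were then set beside 6 lists of other genes of mRNA decay and cap metabolism. Of 60 listed symbols, 54 had a row and 53 were tested. After adjustment, limma called 0 of the 53, and voom called 0 of the 52 in its model. At an unadjusted p below 0.05, limma picked 3 of the 53, all higher in NP, against 9.47% of all tested genes. These were Exosc5 and Exosc2, both subunits of the exosome, and Zfp36l2, an RNA-binding protein that recruits deadenylases, all named after their values had been seen. In 2 of the 53 genes, Lsm6 and Exosc2, the lowest NP value exceeded the highest P value, and in none was the reverse seen, against 5.92% and 0.357% of all tested genes. Exosc2 had 0.122 to 1.60 FPKM in NP and 0 FPKM in every P library, so its separation lies close to the detection limit. Zfp36l2 was low too, with 0 to 7.63 FPKM in NP and 0 to 0.543 FPKM in P. The 7 members had a median log2 fold change of −0.42, beside −0.39 for all tested genes.

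LSM1 to LSM7, PATL1, DDX6, PNRC1 and PNRC2 activate decapping, and PATL2 was listed with them as a protein of the Pat1 family. Of these 12 genes, 4 lay above the median fold change of all genes. Lsm3 and Lsm1, subunits of the ring that binds the 3′ end of deadenylated mRNA, were the most abundant. Lsm3 had a mean of 281 ± 148 FPKM in NP and 242 ± 219 FPKM in P (SD, n = 4 per group). Lsm1 ranged from 3.90 to 151 FPKM in NP and from 0 to 90.6 FPKM in P. Lsm6, of the same ring, had 6.30 to 20.8 FPKM in NP and 0.992 to 5.36 FPKM in P, with a log2 fold change of −1.75 ± 0.82 (SE) and an adjusted p of 0.504 by limma.

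Among 9 recruiters and granule partners, 8 of which were tested, Lsm14b was the most abundant. LSM14B is an RNA-binding protein of stored mRNA particles in oocytes, and its mRNA had a mean of 1328 ± 881 FPKM in NP and 592 ± 291 FPKM in P (SD, n = 4 per group). Its log2 fold change was −1.06 ± 0.59 (SE), and limma gave an adjusted p of 0.542. Eif4enif1, which encodes the transporter and repressor of the cap-binding protein eIF4E, had 69.2 ± 34.9 FPKM in NP and 60.4 ± 12.8 FPKM in P (SD, n = 4 per group). Of 8 nonsense-mediated decay factors, Upf1, the central helicase, and Smg5, an adaptor, had the highest means over the 8 libraries. Upf1 had 119 ± 46.0 FPKM in NP and 88.7 ± 32.7 FPKM in P (SD, n = 4 per group), and Smg5 had 23.7 ± 13.2 and 8.73 ± 3.75 FPKM (SD, n = 4). In P the mean of Smg1, a kinase of the same pathway, was higher than that of Smg5, at 19.5 FPKM.

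The other enzymes that remove caps or digest from the 5′ end had Fhit and Xrn2 as the genes with the highest mean over the 8 libraries. Fhit, a hydrolase of dinucleoside polyphosphates, had 2.10, 4.13, 17.4 and 241 FPKM in NP replicates 1 to 4 and 0 to 27.7 FPKM in P, so that its place rests on NP replicate 4. Xrn2, the nuclear counterpart of Xrn1, had 14.7 ± 7.05 FPKM in NP and 29.9 ± 23.3 FPKM in P (SD, n = 4 per group). Its mean exceeded that of Xrn1, the gene for the cytoplasmic enzyme, in both groups, on a scale that corrects for length but with the short gene model of Xrn1 described above. Of the cap synthesis enzymes, Rngtt and Rnmt, the capping enzyme and the cap methyltransferase, were low. Their means in NP were 6.61 and 1.56 FPKM and in P 2.08 and 3.95 FPKM. The means of Rngtt rest mostly on 1 library per group, NP replicate 4 with 22.6 FPKM and P replicate 1 with 6.90 FPKM.

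The 17 genes of 3′ decay had a median log2 fold change of −0.87, and 2 of them lay above the median of all genes. Exosc5 had 60.6 to 266 FPKM in NP and 9.71, 5.75, 4.37 and 122 FPKM in P replicates 1 to 4, with a log2 fold change of −2.73 ± 0.93 (SE) and an adjusted p of 0.416 by limma. P replicate 4 thus lay among the NP values of Exosc5. Exosc7 ranged from 11.4 to 105 FPKM in NP and from 34.1 to 436 FPKM in P, with a log2 fold change of 1.50 ± 0.88 (SE) and an adjusted p of 0.568 by limma.

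**Figure D5:**
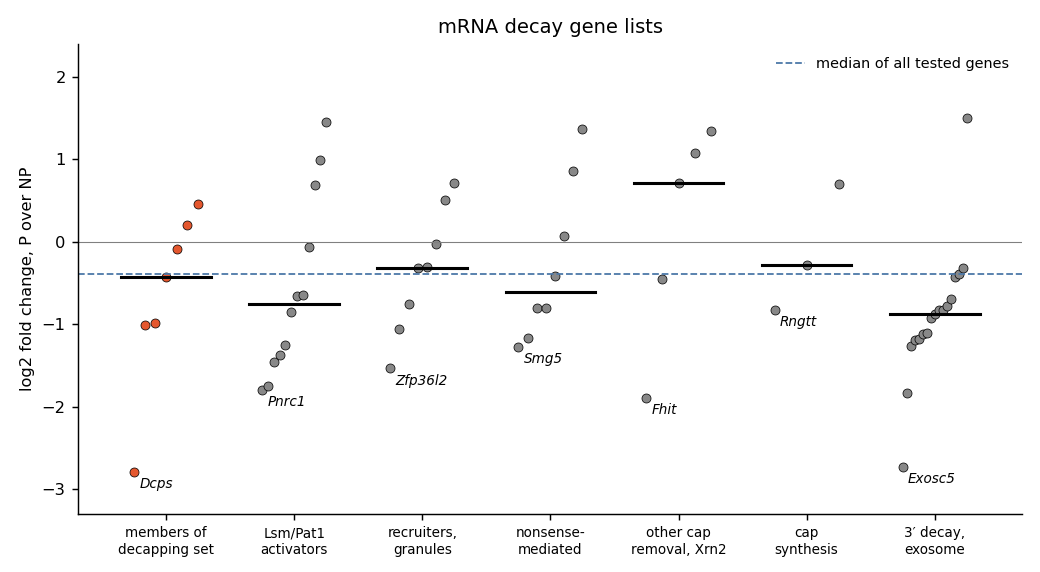
Log2 fold change of P over NP (limma, FPKM as deposited) for the 7 decapping and 5′ decay genes (red) and for 6 lists of other mRNA decay and cap genes (grey), with black bars for list medians and the lowest gene named. The dashed line is the median of all tested genes, at −0.39. Dcps is the lowest red point at −2.79 and Exosc5 the lowest grey point at −2.73.

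Some of the variation was shared between members. Dcp2 and Xrn1 both had their highest P value in P replicate 2, their highest NP value in NP replicate 3, and their lowest P value in P replicate 4. Their lowest NP values differed in place, with NP replicate 1 for Dcp2 and NP replicate 4 for Xrn1. The value of Xrn1 in P replicate 4 rests on 2 reads. Over the 8 libraries, the genes most like Dcp2 among 5638 with a mean above 10 FPKM were Zfp560, Runx1t1 and Cdc25a, with Pearson's r of 0.961, 0.951 and 0.947. Cdc25a, which encodes a phosphatase that activates cyclin-dependent kinases, had 37.5, 80.0, 75.1 and 54.0 FPKM in NP replicates 1 to 4 and 24.5, 148, 57.3 and 11.1 FPKM in P replicates 1 to 4. The genes most like Xrn1 were Ifnar1, Meis2 and Hs2st1, with r of 0.951, 0.933 and 0.917. These correlations describe 8 libraries that share the amplification and the scaling, and the genes were picked from all of these for their high r.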

How the data were processed

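RNA of the P and NP pools was depleted of rRNA, reverse transcribed with oligo(dT) and random primers and amplified. Per the labels, the authors used Trim Galore 0.4.1 for trimming, HISAT2 2.0.5 for mapping (GRCm38) and Seqmonk for quantification. The deposited table holds FPKM per gene and library on a linear scale. The other deposited tables hold group means with ratios and the authors' DESeq2 comparison, and were not used. Groups and replicate numbers came from the sample titles. The NP and P pools were fractions of the same gradients. No label ties a replicate number to a gradient, and the numbers were not taken as pairs. The main tests therefore leave out a pairing that the design holds.

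P and NP were compared with limma 3.58.1 (trend) in R 4.3.3 on log2(FPKM + 1), without a block, keeping genes that averaged more than 0.1 FPKM in either group. Within-library ratios were tested by exact permutation of the 70 possible groupings, whose smallest 2-sided p is 0.029. FPKM is not a count, so no count model was the main test. Whole reads were recovered for 13590 of 15585 genes above 0 (96.1% of values above 0, tolerance 0.01 reads plus 2e-06 of the number), 6612 of them with a searched length of 100 to 30000 bp, the shortest that gave whole numbers in genes with at least 4 libraries above 0. A read here stands for 1 fragment of the FPKM, and amplified fragments are not independent molecules, so that limits at 0 cover counting error only. The recovery of reads and the limma fit were tested on simulated data. The spread in the limma simulation was capped below that of every member except Edc4, so it does not show the power for those members. The table calls its libraries biological repetitions, and p values measure the spread between these libraries.

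The members and lists were chosen with earlier results of these data known. Genes named were all members, the 2 most abundant genes per list, list genes called or without overlap at a mean above 10 FPKM, and the 3 genes most like Dcp2 and Xrn1. Exosc2, Zfp36l2 and Smg1 were named outside this rule, after their values had been seen. Alternatives were another pseudocount, filters, scalings, a replicate block, voom and the removal of single libraries.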

Additional observations from a re-analysis of the deposited data

Results flagged for a closer look

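In 4 of 20 sets of 4 values checked (7 genes and 3 ratios in each group), the gap of the extreme library to its neighbour exceeded the critical value of Dixon's test. Chance passes it in about 1 of 20 sets of normally distributed values. The genes were checked on linear FPKM, which need not be so distributed, so the 4 of 20 cannot be judged against that rate. Edc3 was highest in replicate 1 of both groups, with 14.7 FPKM in NP and 12.0 FPKM in P. Dcp1b had 0.369 FPKM in P replicate 1, from 11 reads. Edc4 had 244 FPKM in P replicate 4, and NP replicate 4 was likewise the highest NP library for this gene with 210 FPKM.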

How the results depend on the processing

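None of the 7 members and none of the tested list genes, 51 to 54 by setting, was called in any of the 15 alternatives. The count of all called genes, 3 as tested, was 5 with a pseudocount of 0.1, 5 for genes with a mean FPKM above 1, 0 without a filter, 0 with one median FPKM, 0 after quantile normalisation (1510, 1392 and 942 genes at an unadjusted p below 0.05, respectively), 124 with voom (122 of them higher in NP) and between 0 and 1 without single libraries. With the replicate number as a block it was 1, and the block changed no call among members. Deviations of same-numbered libraries correlated at 0.139, 0.0518, 0.251 and 0.155 (11374 genes) against −0.135 to 0.136 for other pairs. Each library correlated best with its own number except NP replicate 2, which was nearest to P replicate 1. NP and P were pooled from the same profiles, so the libraries are paired by design. The labels do not state that equal numbers mark a pair, and the correlations are only a hint of it. Under the block, Edc4 to Edc3 and Xrn1 to Dcps were higher in P in 4 of 4 numbers, with p = 0.125, the smallest that an exact permutation of 4 pairs gives, and Dcp1a to Dcp1b had an exact p = 0.250. Members without overlap numbered 2 with one median FPKM, by the addition of Dcp1a, against 1 after quantile normalisation and 1 as deposited, while of all genes 5.04% had P above NP and 2.09% NP above P with one median FPKM, and 4.62% and 2.53% after quantile normalisation. Dcps kept its direction in all 15, between −3.28 and −1.54, with adjusted p values from limma between 0.221 and 0.731. Dcp1a ran from 0.19 to 1.80 and Dcp1b from −2.42 to −0.495. Edc3 ran from −1.60 to −0.019, the latter with one median FPKM, and was −0.11 after quantile normalisation. Dcp2 turned to 1.17 (one median FPKM), 0.40 (quantile), 0.16 without NP replicate 3, 0.34 without P replicate 1 and 0.56 without P replicate 4, and was −0.93 without P replicate 2. Xrn1 turned to 0.41 (one median FPKM), 0.36 (quantile), 0.26 without NP replicate 3 and 0.02 without P replicate 4, and was −1.01 without P replicate 2, while Edc4 turned to −0.00098 without P replicate 4. The cause of these changes was not tested. With another pseudocount and without single libraries, the difference in Dcp1a to Dcp1b ran from 0.97 to 2.48, in Edc4 to Edc3 from 0.73 to 1.86 and in Xrn1 to Dcps from 1.47 to 3.24, with exact permutation p of 0.0571 or more. Dcp1b and Xrn1 rest on the fewest reads, 0 to 51 and 2 to 600 per library, and both had more reads in NP replicate 2, the library of the lowest depth, than in NP replicate 4, that of the highest.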
